A study of Homo sapiens with 4 samples.

Results

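The genes described here are the transcriptional coactivators YAP1 and WWTR1 (TAZ), their DNA-binding partners TEAD1 and TEAD4, and 6 genes that act downstream of or around them, CCN1, CCN2, ANKRD1, AMOTL2, LATS2 and AJUBA. They were chosen by gene symbol, mapped from the Ensembl identifiers of the count table, and all 10 were found among its 58233 identifiers. Messenger RNA was sequenced from MIA PaCa-2 and PANC-1, established human pancreatic cancer cell lines recorded as wild type, after 24 h with PBS or cannabichromene (CBC), a cannabinoid of hemp. Each combination of line and treatment was 1 culture and 1 library, so there were 4 libraries, with 21742775 to 27903667 counts on genes. MIA PaCa-2 cells received 35 µM CBC and PANC-1 cells 30 µM, doses that differ and come from the study's methods. CBC was dissolved in acetonitrile. The records name PBS for the controls, the methods call them vehicle controls, and whether they received acetonitrile is not stated in either.

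YAP1 and WWTR1 do not bind DNA themselves. In the nucleus they join TEAD proteins, which recognise a short motif, and switch on genes of growth, adhesion and the matrix. The Hippo pathway holds them back: the kinases LATS1 and LATS2, which the MST kinases (STK3 and STK4) activate, phosphorylate YAP1 and WWTR1, which keeps them in the cytoplasm. Several targets feed back on the pathway, among them LATS2 and AMOTL2, an angiomotin-like protein that binds YAP1. AJUBA is a LIM protein that holds LATS kinases in check. CCN1 and CCN2 are secreted matrix-associated proteins, and ANKRD1 is an ankyrin repeat protein best known from heart muscle; all 3 are widely used as readouts of YAP1 and WWTR1 activity. In carcinoma cells the pathway responds to cell density, attachment and actin tension.

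Promoter sequence was taken from RefSeq (GRCh38.p14) as windows from 250 bases before to 50 bases after a transcription start. 7 of the 10 genes matched the table, with 10 windows, and CCN1, TEAD1 and TEAD4 had none there. The TEAD motif GGAATG, searched on both strands, was in 6 of the 10 windows, against 14% of all 35116 windows in the table. 3 windows are shown, with the letters of the motif or its reverse complement in capitals. The CCN2 window is shown because CCN2 differed most between the lines, the ANKRD1 window because the gene was almost unread in all libraries, and the AMOTL2 window because AMOTL2 was the gene of the 10 that passed the test of CBC. They lie on the minus strand at chr6:131951323-131951622, chr10:90921038-90921337 and chr3:134374398-134374697.
CCN2: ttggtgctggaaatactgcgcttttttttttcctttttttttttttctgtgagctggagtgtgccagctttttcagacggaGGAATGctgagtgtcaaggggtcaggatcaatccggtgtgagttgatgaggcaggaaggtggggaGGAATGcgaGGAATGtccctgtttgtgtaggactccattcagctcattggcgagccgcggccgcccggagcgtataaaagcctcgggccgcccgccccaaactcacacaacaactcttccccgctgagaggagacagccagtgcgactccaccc
ANKRD1: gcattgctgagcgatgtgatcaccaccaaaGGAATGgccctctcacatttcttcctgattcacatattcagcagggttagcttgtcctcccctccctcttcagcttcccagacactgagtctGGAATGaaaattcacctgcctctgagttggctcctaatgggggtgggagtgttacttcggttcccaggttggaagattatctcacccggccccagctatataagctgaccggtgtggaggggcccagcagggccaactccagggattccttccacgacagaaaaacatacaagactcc
AMOTL2: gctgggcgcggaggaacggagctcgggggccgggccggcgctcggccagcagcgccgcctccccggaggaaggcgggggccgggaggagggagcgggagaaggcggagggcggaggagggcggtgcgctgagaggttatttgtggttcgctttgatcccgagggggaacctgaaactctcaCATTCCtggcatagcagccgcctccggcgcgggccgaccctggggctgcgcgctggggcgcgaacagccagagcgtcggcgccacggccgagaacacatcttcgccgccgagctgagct
The CCN2 window holds the motif 3 times, the first match at -169 to -164 and the others at -104 to -99 and -95 to -90, counted from the start site. The ANKRD1 window holds it 2 times, at -220 to -215 and -128 to -123. 1.37% of all windows hold 2 or more matches. In AMOTL2 the match is on the opposite strand, at -69 to -64, and the other AMOTL2 window has none. Windows of YAP1, LATS2 and AJUBA hold 1 match each, and both windows of WWTR1 hold none. The AP-1 motif TGANTCA was in 1 of the 10 windows, that of ANKRD1, against 7.71% of all windows. The CArG box, the motif of SRF, was in 0 of the 10, against 1.29%. A match of letters is a description of the window and shows no binding.

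Levels are given as CPM (counts in each 1000000 of a library) on library sizes scaled by the trimmed mean of M-values (TMM), and fold changes are ratios of these levels unless a log2 value is named. Log2 fold changes carry a prior count of 2, which pulls those of genes with few counts towards 0. No replicate stands behind a difference within a line, and the 95% intervals (exact binomial, Clopper-Pearson) cover counting error only. Within a line, genes at or above 1 CPM in either library were compared, which 8 of the 10 genes did in MIA PaCa-2 cells (not CCN2 and ANKRD1) and 9 in PANC-1 cells (not ANKRD1). These are whole cultures, so fewer cells of a kind and less RNA per cell cannot be told apart. The keratins KRT8, KRT18 and KRT19 had 3976 to 40044 counts in the 4 libraries. KRT7 had 2 counts without CBC and 52 with it in MIA PaCa-2, and 49 and 58 in PANC-1. EPCAM and CDH1, which epithelial cells also carry, had 0 or 1 count in MIA PaCa-2 cells. Of the markers of other cells, DCN, LUM, PECAM1, PTPRC and CD3E were at 0 in every library. The 6 stromal markers summed to 371 CPM in the MIA PaCa-2 control and 96.1 CPM with CBC, almost all of it COL1A2, and to 136 and 47.1 CPM in PANC-1 cells, almost all of it COL1A1. The 6 epithelial markers summed to 3476 CPM without and 2553 CPM with CBC in MIA PaCa-2, and to 2045 and 1206 CPM in PANC-1. The 5 leukocyte markers summed to 6.66 and 0.849 CPM, and to 1.41 and 0.0732 CPM, mostly from CD14, which was called lower over both lines (adjusted p = 0.0303 in edgeR's test). The 5 endothelial markers summed to 0.132 to 2.2 CPM.

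**Figure D1:**
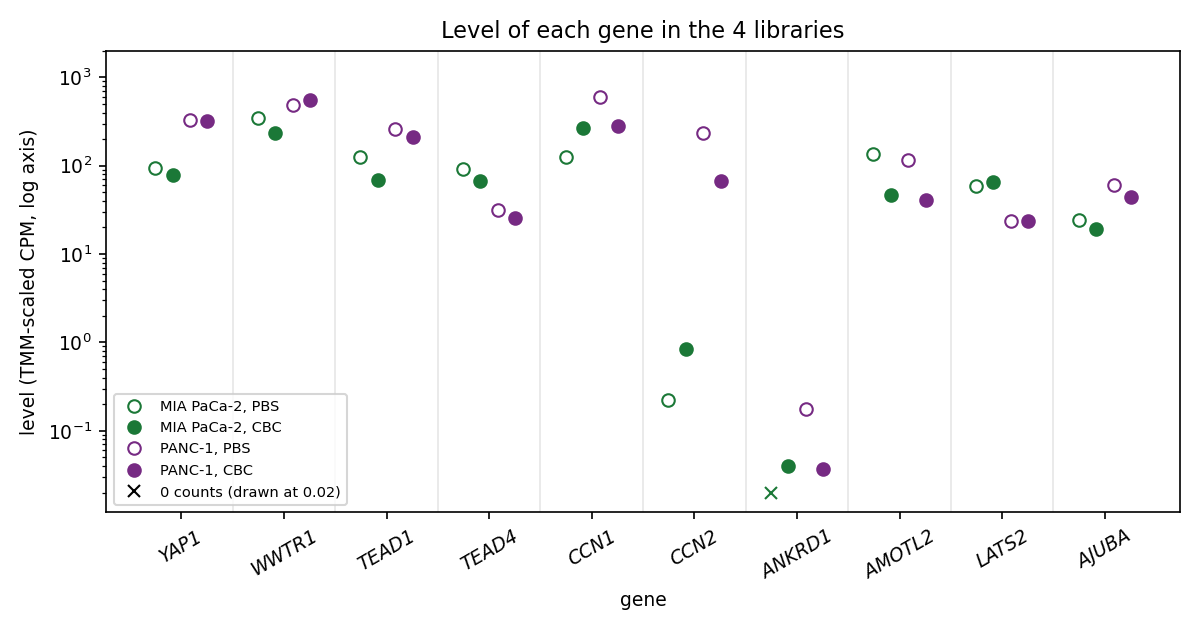
Level of each of the 10 genes in the 4 libraries, as TMM-scaled CPM on a log axis, with open symbols for PBS, filled symbols for CBC and a cross for 0 counts. CCN2 spans 0.225 to 235 CPM, ANKRD1 stays under 0.2 CPM in every library, and AMOTL2 is lower with CBC in both lines.

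The clearest response to CBC was in AMOTL2 (ENSG00000114019, chromosome 3 of GRCh38, 134355347 to 134375479). MIA PaCa-2 cells had 135 CPM (3011 counts) under PBS and 46.4 CPM (1148 counts) under CBC, and PANC-1 cells had 115 CPM (2626 counts) and 41.4 CPM (1130 counts). Both treated libraries lay below both controls. The level with CBC was 2.92-fold lower (counting interval 2.72 to 3.13) in MIA PaCa-2 cells and 2.79-fold lower (2.6 to 3.0) in PANC-1 cells. A log2 fold change below -1 was found for 8.97% of all genes compared in MIA PaCa-2 and for 7.03% of those in PANC-1.

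The effect of CBC shared by the lines was tested in edgeR (quasi-likelihood) on 16381 genes, with the cell line as a block and 1 residual degree of freedom. AMOTL2 fell by 1.51 on the log2 scale (standard error 0.21, adjusted p = 0.0144 in edgeR's test) and was lower in 2 of 2 lines. It was the only one of the 9 genes tested with an adjusted p under 0.05, ANKRD1 being below the filter, so 1 of 9 was called lower and 0 of 9 higher. Over all genes, 2.45% were called lower and 2.26% higher. At an unadjusted p under 0.05 there were 2 of the 9 genes, AMOTL2 and TEAD1, against 20.9% of all genes. DESeq2 called 1 of the 9, and 1371 genes in all. Without the cell line in the fit the AMOTL2 estimate was the same, -1.51, but its adjusted p was 1 in edgeR's test.

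CCN1 and CCN2 differed from the controls in opposite directions in the lines. CCN1 (ENSG00000142871, chromosome 1, 85580761 to 85584589) stood at 125 CPM (2774 counts) under PBS and 270 CPM (6681 counts) under CBC for MIA PaCa-2, 2.17-fold higher with CBC (2.07 to 2.26). PANC-1 cells had 602 CPM (13695 counts) and 280 CPM (7641 counts), which is 2.15-fold lower with CBC (2.09 to 2.22). The treated libraries therefore met at nearly one level, between the controls. On the log2 scale the changes were 1.11 and -1.11, and the estimate over both lines was 0.01 (standard error 0.47, adjusted p = 0.995 in edgeR's test), a mean of unlike responses. In MIA PaCa-2 cells CCN1 was the 1 gene of the 8 compared that was past 2-fold higher, against 11.5% of all genes. In PANC-1 cells 0 of the 9 genes were past 2-fold higher, against 7.71%, and 3 were past it lower, against 7.03%: CCN1, CCN2 and AMOTL2.

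CCN2 (ENSG00000118523, chromosome 6, 131948176 to 131951372), whose window with 3 motif matches is printed above, was nearly silent in MIA PaCa-2 cells. It had 5 counts (0.225 CPM) in the control and 21 counts (0.849 CPM) with CBC, a ratio of 3.78 with a wide counting interval of 1.39 to 12.8. PANC-1 cells had 235 CPM (5336 counts) under PBS and 67.2 CPM (1837 counts), 3.49-fold lower with CBC (3.31 to 3.68). Treated PANC-1 cells still held 79.2 times the CCN2 level of treated MIA PaCa-2 cells (51.6 to 128). The estimate over both lines was -0.95 (standard error 0.64, adjusted p = 0.443 in edgeR's test), but -0.06 in DESeq2 and -1.8 without the cell line in the edgeR fit. On the deposited CPM with a pseudocount of 1, the log2 fold change in MIA PaCa-2 was 0.59 in place of 1.60.

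The difference in response between the lines could not be tested, since each line has 1 library per condition. Of the 8 genes compared in both lines, 2 (CCN1 and WWTR1) had counting intervals on opposite sides of 0, against 12.7% of all 12502 genes compared in both lines. 1 of the 8, CCN1, was past a log2 fold change of 1 in opposite directions, against 0.328% of all genes. The AP-1 factors, which often occupy the same enhancers as TEAD proteins, were compared too: 7 of 9 were past 2-fold higher with CBC in MIA PaCa-2, where 11.5% of all genes were, and 2 of 9 in PANC-1, where 7.71% were, with medians of 2.19 and 0.45. The difference between the lines in these counts was not tested. All 9 had log2 fold changes above 0 in MIA PaCa-2, whereas PANC-1 had 5 above 0 and 4 below. FOSL1, picked after its values were seen, was among those 4. It had 2558 counts without and 7486 with CBC in MIA PaCa-2 cells, against 6155 and 5574 in PANC-1. FOSL2 was among the 5, with log2 fold changes of 0.88 (MIA PaCa-2) and 0.80 (PANC-1). The part of the AP-1 factors in the CCN1 and CCN2 values was not tested. Nor was that of the lower sums of stromal, epithelial and leukocyte markers given above.

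**Figure D2:**
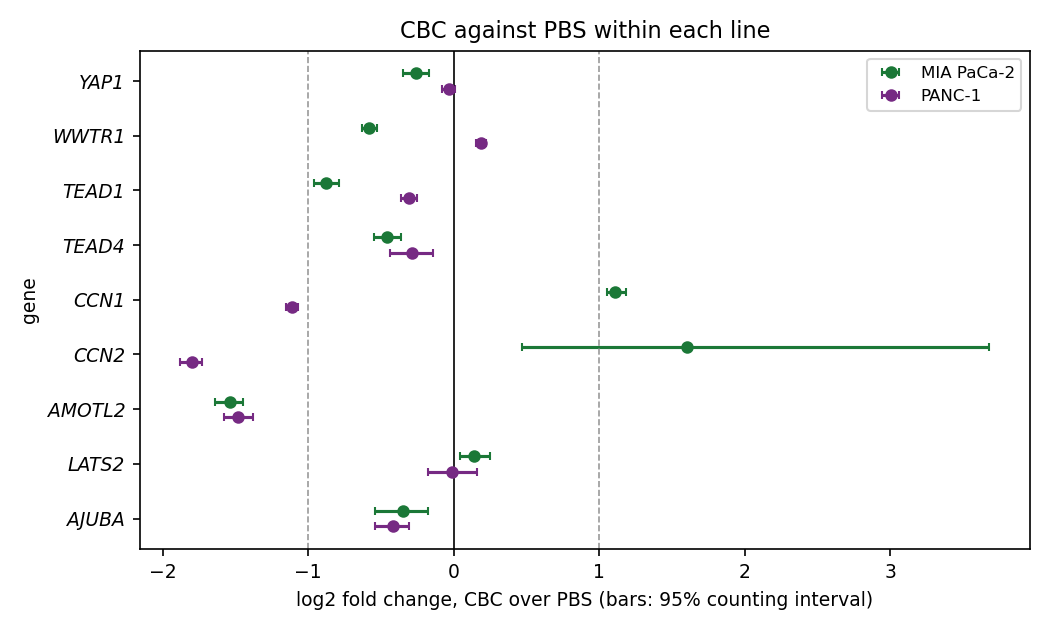
Log2 fold change of CBC over PBS for 9 genes in each line, with 95% counting intervals as bars, the solid line at 0 and dashed lines at a 2-fold change. AMOTL2 lies near -1.5 in both lines, CCN1 and CCN2 lie on opposite sides of 0, and the factors and AJUBA lie within the dashed lines; ANKRD1 is left out for its few counts.

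ANKRD1 (ENSG00000148677, chromosome 10, 90912096 to 90921087) was almost unread. It had 0 and 1 counts in MIA PaCa-2 cells and 4 and 1 in PANC-1 cells, control first. The 0 allows a level of up to 0.135 CPM (3 counts) in the MIA PaCa-2 control. A fall or a small change in ANKRD1 was therefore not detectable at this depth. A rise to 1 CPM was not seen, the levels with CBC being 0.0404 CPM (MIA PaCa-2) and 0.0366 CPM (PANC-1).

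The coactivators themselves differed by less than 2-fold between CBC and PBS. YAP1 (chromosome 11, 102110447 to 102233424) had 95.1 CPM without and 79.3 CPM with CBC in MIA PaCa-2 cells, while PANC-1 cells had 325 and 319 CPM. Its log2 fold changes were -0.26 (-0.35 to -0.17) and -0.03 (-0.08 to 0.01), so that the second interval includes 0. WWTR1 (chromosome 3, 149517235 to 149736714) had 351 CPM without and 235 CPM with CBC in MIA PaCa-2, and 481 and 547 CPM in PANC-1. These are log2 fold changes of -0.58 (-0.63 to -0.53) and 0.19 (0.15 to 0.22), on opposite sides of 0. Neither gene passed the test over both lines, with adjusted p of 0.733 for YAP1 and 0.678 for WWTR1 in edgeR's test. Per kilobase of exon, WWTR1 stood above YAP1 in all 4 libraries, at 42.1 against 15.1 CPM per kilobase in the MIA PaCa-2 control and 57.6 against 51.6 in the PANC-1 control.

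TEAD1 (chromosome 11, 12674421 to 12944737) had 127 CPM without and 69.2 CPM with CBC in MIA PaCa-2, and 262 and 211 CPM in PANC-1. The log2 fold changes were -0.88 (-0.96 to -0.79) and -0.31 (-0.36 to -0.25), and the estimate over both lines was -0.58 (standard error 0.22, adjusted p = 0.174 in edgeR's test). TEAD4 (chromosome 12, 2959330 to 3040676) went from 92.3 to 67.3 CPM and from 31.5 to 25.8 CPM, log2 fold changes of -0.46 (-0.55 to -0.36) and -0.29 (-0.44 to -0.14), with an adjusted p of 0.381 in the same edgeR test. Both were lower with CBC in 2 of 2 lines, by amounts that the test did not separate from 0.

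TEAD2 had log2 values of -1.07 (MIA PaCa-2) and -0.79 (PANC-1) for CBC over PBS (adjusted p = 0.0841 in edgeR's test), TEAD3 had 0.62 and 0.78 (adjusted p = 0.159), and VGLL4, a cofactor that competes with YAP1 for TEAD proteins, had 0.68 and 0.70 (adjusted p = 0.121). VGLL1, VGLL2 and VGLL3 had 0 counts in every library. In edgeR's test 0 of the 7 factors tested were called over both lines, while TEAD1, TEAD2, TEAD3 and VGLL4, 4 of the 7, had an unadjusted p under 0.05, against 20.9% of all genes, and DESeq2 called 1 of them, TEAD2 (adjusted p = 0.0235 in DESeq2). Over all genes edgeR called 771 and DESeq2 1371.

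**Figure D3:**
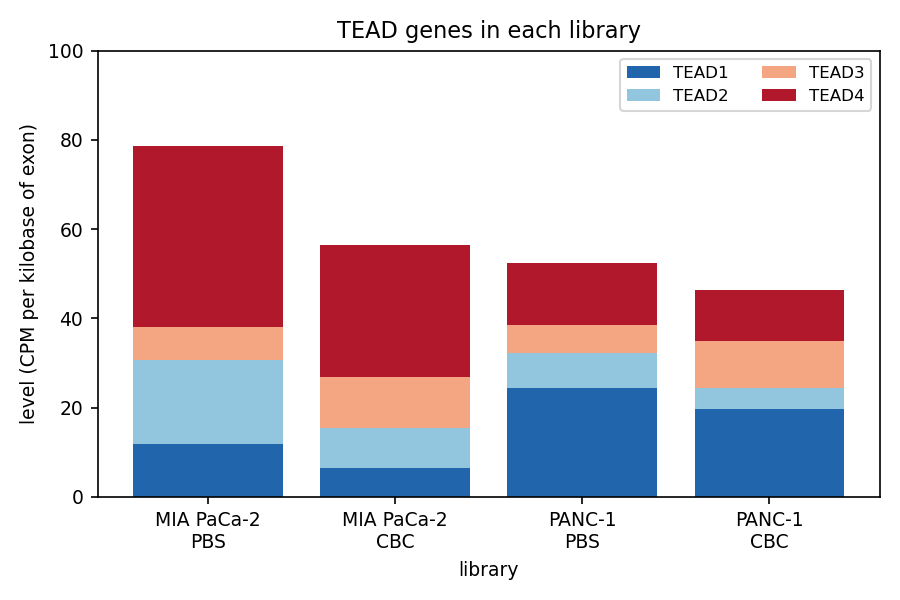
Levels of the 4 TEAD genes in each library, stacked, in CPM per kilobase of merged exons. TEAD4 makes up 51.6% of the sum in the MIA PaCa-2 control and 26.4% in the PANC-1 control, and TEAD1 makes up 15.1% and 46.6%.

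LATS2 (chromosome 13, 20973036 to 21061586), the kinase, had 58.7 CPM without and 64.9 CPM with CBC in MIA PaCa-2 cells, while PANC-1 cells had 23.6 and 23.4 CPM. The log2 fold changes were 0.14 (0.04 to 0.25) and -0.01 (-0.18 to 0.16), with an adjusted p of 0.894 over both lines in edgeR's test. AJUBA (chromosome 14, 22971177 to 22982551) went from 24.4 to 19.0 CPM and from 59.8 to 44.6 CPM. Its log2 fold changes of -0.35 (-0.54 to -0.18) and -0.42 (-0.54 to -0.31) had intervals that overlap, with an adjusted p of 0.394 in edgeR's test.

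At baseline the lines differed in most of the 10 genes. Of the 9 genes that reached 1 CPM in a control, 5 were past 2-fold higher in PANC-1 cells, against 24% of all genes, and 2 were past it lower, against 18%. The controls compared here are those used for the CBC comparisons. YAP1 was 3.42-fold higher in PANC-1 cells (3.26 to 3.59), TEAD1 2.06-fold (1.97 to 2.15), AJUBA 2.45-fold (2.22 to 2.72) and CCN1 4.83-fold (4.63 to 5.03). CCN2 was 1044-fold higher, with an interval from 447 to 3216 that reflects its 5 counts in MIA PaCa-2 cells. Its log2 difference of 9.58 was 7.59 on the deposited CPM with a pseudocount of 1. TEAD4 was 2.93-fold lower in PANC-1 cells (2.69 to 3.19) and LATS2 2.49-fold lower (2.25 to 2.75). WWTR1 was 1.37-fold higher (1.33 to 1.41), and AMOTL2 was 1.17-fold lower (1.11 to 1.24). The order of the paralogs turned with the line, TEAD4 leading the TEAD genes per kilobase in MIA PaCa-2 cells and TEAD1 in PANC-1 cells.

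In the treated libraries the line difference in CCN1 was 1.04-fold (1.0 to 1.07), while that in WWTR1 was 2.33-fold (2.26 to 2.40) and that in TEAD1 3.06-fold (2.90 to 3.23). YAP1 was 4.02-fold higher in treated PANC-1 cells (3.83 to 4.22), TEAD4 2.61-fold lower (2.39 to 2.86) and LATS2 2.77-fold lower (2.53 to 3.04).

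**Figure D4:**
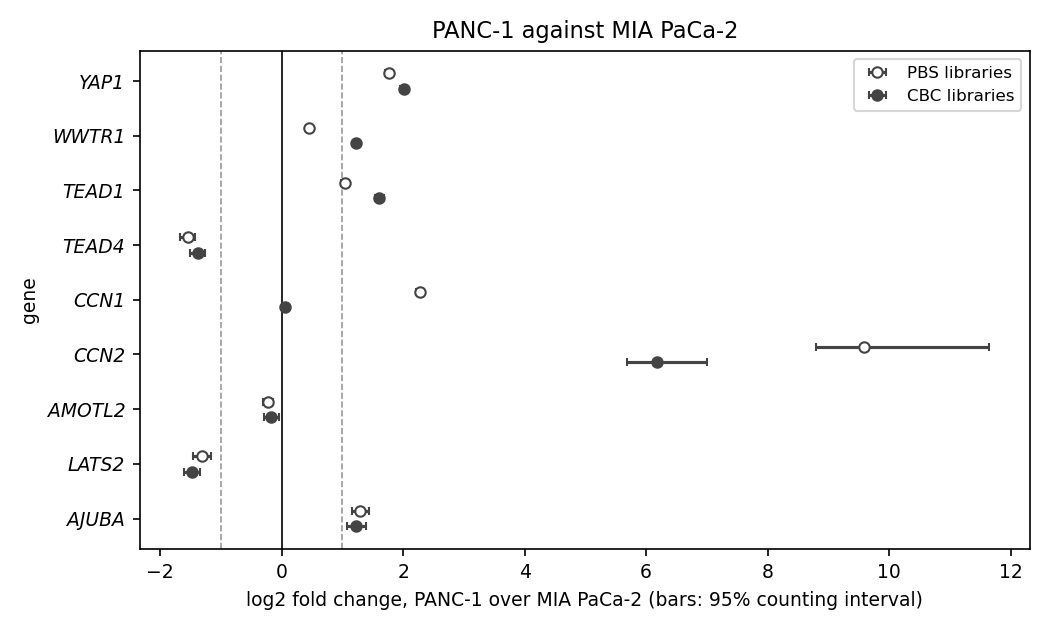
Log2 fold change of PANC-1 over MIA PaCa-2 for 9 genes in the PBS libraries (open) and the CBC libraries (filled), with 95% counting intervals and dashed lines at a 2-fold change. CCN1 moves from 2.27 to 0.05 and CCN2 from 9.58 to 6.18 with CBC, and all 9 genes keep their side of 0.

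The lines were compared over both treatments in the same edgeR fit, with 2 libraries of each line and the treatment as a term. Of the 9 genes tested, 5 were called higher in PANC-1 cells, against 25.1% of all genes, and 2 lower, against 21.7%. Those higher were YAP1, WWTR1, TEAD1, CCN2 and AJUBA. YAP1 had a log2 difference of 1.83 (standard error 0.20, adjusted p = 0.000283), and CCN2 of 7.75 (0.73, adjusted p = 0.00014). TEAD1 had 1.27 (0.22, adjusted p = 0.00261), AJUBA 1.20 (0.24, adjusted p = 0.00487) and WWTR1 0.78 (0.22, adjusted p = 0.022). TEAD4 was lower by -1.53 (0.22, adjusted p = 0.00123) and LATS2 by -1.45 (0.23, adjusted p = 0.00194). CCN1, whose difference nearly vanished with CBC, was not called (1.10, standard error 0.48, adjusted p = 0.0928), nor was AMOTL2 (-0.26, 0.21, adjusted p = 0.335). Without the treatment in the fit WWTR1 (adjusted p = 0.115) and TEAD1 (adjusted p = 0.0602) were no longer called, and with no filter on low counts CCN1 was (adjusted p = 1.05e-06). No line and treatment had a second culture, so none of these p-values measures the spread between cultures. With the treatment in the fit, they rest on how far the line difference varied between PBS and CBC. With 1 residual degree of freedom, edgeR takes that spread partly from the gene itself and partly from all genes tested. This holds for the edgeR test of CBC too.

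The wider pathway was read from fixed lists of general knowledge. The 30 genes of the Hippo kinases and their regulators, which include LATS2, AMOTL2 and AJUBA, had a median log2 fold change of -0.31 over 28 genes in MIA PaCa-2 cells, with 1 past 2-fold higher and 3 lower, beside -0.01, 11.5% and 8.97% over all genes. In PANC-1 cells the median was -0.02 over 29 genes, with 0 past 2-fold higher and 2 lower, beside 0.02, 7.71% and 7.03% over all genes. Over both lines AMOTL2 was the 1 gene of 30 called lower, against 2.45% of all genes. NF2 (merlin), an activator of LATS kinases, had 7569 counts without and 2813 with CBC in MIA PaCa-2, which is -1.58 on the log2 scale beside -0.43 in PANC-1, with an adjusted p of 0.0933 in edgeR's test. The giant cadherins FAT1 and FAT4 had -0.52 and -1.57 in MIA PaCa-2, beside -1.10 and -0.32 in PANC-1, and neither was called. The FAT4 value in MIA PaCa-2 rests on 33 and 11 counts, with a counting interval of -2.87 to -0.72. RASSF1, a scaffold of the MST kinases, was the gene past 2-fold higher in MIA PaCa-2 cells, at 1.44, and had -0.27 in PANC-1 cells.

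A signature of 22 YAP and TAZ targets, 5 of which are among the 10 genes, held 17 genes compared in MIA PaCa-2 cells, with 5 past 2-fold higher, against 11.5% of all genes, 3 lower, against 8.97%, and a median of -0.02. In PANC-1 cells 21 were compared, with 1 past 2-fold higher, against 7.71%, 6 lower, against 7.03%, and a median of -0.23. Over both lines 1 of 21 was called higher, against 2.26% of all genes, and 1 lower, against 2.45%. The gene called higher, GADD45A, a stress-induced gene of growth arrest, rose in both lines, with log2 fold changes of 3.78 and 1.89 (adjusted p = 0.0172 in edgeR's test). The gene called lower was AMOTL2. CRIM1, a transmembrane protein that binds bone morphogenetic proteins, had -1.66 and -0.01, and ARHGEF17 had -0.71 and -0.48. At baseline 11 of the 21 signature genes compared were past 2-fold higher in PANC-1 cells, against 24% of all genes, and 2 lower, against 18%, with a median of 1.12 beside 0.10 over all genes. AXL, a receptor tyrosine kinase, is an example, with 2933 counts in the MIA PaCa-2 control and 12729 in that of PANC-1.

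**Figure D5:**
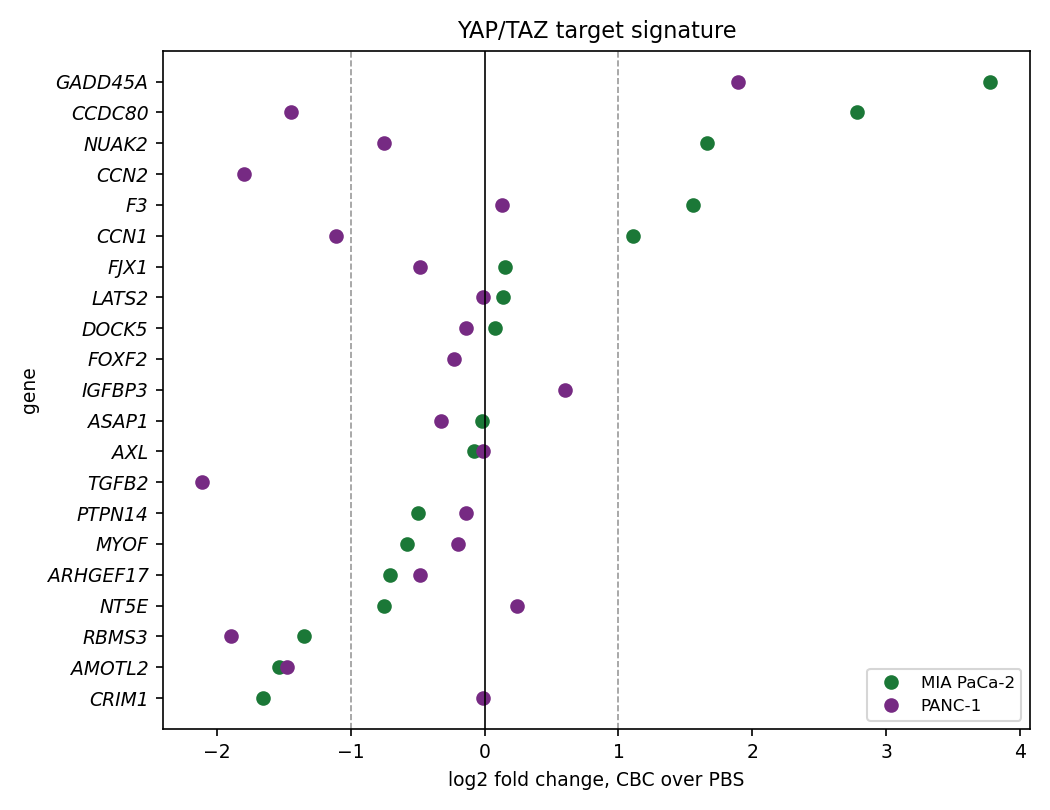
Log2 fold change of CBC over PBS for the genes of the YAP and TAZ target signature that reached 1 CPM in the line plotted, ordered by MIA PaCa-2, with dashed lines at a 2-fold change. GADD45A is higher and AMOTL2 and RBMS3 are lower in both lines, while CCN1 and CCDC80 lie past the dashed lines on opposite sides. CCDC80 rests on 3 counts without and 35 with CBC in MIA PaCa-2, and RBMS3 on 30 and 8 in PANC-1.

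Targets of SRF and its MRTF coactivators, which respond to the same actin tension and share genes with YAP1, had a median of 0.03 over 18 genes in MIA PaCa-2 cells and -0.33 over 18 in PANC-1 cells. Of 19 tested over both lines, 2 fell, against 2.45% of all genes: ACTB (-0.70, adjusted p = 0.037 in edgeR's test) and TAGLN2 (-0.90, adjusted p = 0.0415). ACTB has processed pseudogenes that may share its reads. VCL, the adhesion protein vinculin, had log2 fold changes of -1.73 and -0.37, the myosin light chain gene MYL9 had -0.92 and -1.0, and CNN2, a calponin, had -0.69 and -0.97, none of them called. Of 9 AP-1 factors tested over both lines, 2 rose, against 2.26% of all genes, namely ATF3 (4.60, adjusted p = 0.00449) and JUND (1.01, adjusted p = 0.0391) in the same edgeR test. JUN had log2 fold changes of 1.99 and 0.45 and JUNB of 2.35 and -0.21 in MIA PaCa-2 and PANC-1 cells, and neither was called.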

How the data were processed

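The authors used cutadapt 2.7 for trimming, STAR for alignment to GRCh38 and HTSeq for counting on Ensembl release 89. The library kit was directional; the strand setting of the counting and the other versions are not given in the sources used here. The authors deposited unscaled read counts for every gene and, for each library, a signal in CPM on TMM-scaled library sizes; recomputed from the counts, these values differed by at most 6.84e-09 of a value. Of 58233 identifiers, 57392 matched a symbol in GENCODE 44 (GRCh38), which gave positions and exon lengths.

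Counts were analysed with edgeR 4.0.16 in R 4.3.3, with alternatives in DESeq2 1.42.0. The design pairs libraries by cell line: across genes, the deviations of a line from the mean of each treatment correlated at 0.923. The quasi-likelihood test used edgeR's own filter, TMM and Benjamini-Hochberg adjustment over all 16381 genes, with calls under 0.05, and was tested on simulated data. Named genes were the 10 genes, all YAP, TAZ, TEAD and VGLL factors, and per list the 4 with the largest mean change at 10 CPM or more. The 3 genes nearest in pattern to YAP1, CCN1 and CCN2 were named too. FOSL1, FOSL2, RASSF1, AXL, ACTB, CCDC80 and RBMS3 were added after their values were seen. Genes and lists were chosen with earlier results of these data known. Exons of YAP1, WWTR1 and CCN2 overlap antisense genes with at most 51 counts, whose reads could be told apart only if the counting used strand.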

Additional observations from a re-analysis of the deposited data

Results flagged for a closer look

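CCN2, CCN1 and WWTR1 differed from PBS in opposite directions in the lines, with counting intervals on opposite sides of 0. Such intervals were found for 12.7% of all 12502 genes compared in both lines. CCN2 was under 1 CPM in both MIA PaCa-2 libraries, so it is not among the genes compared. The log2 fold change in PANC-1 cells minus that in MIA PaCa-2 cells was -3.40 for CCN2, -2.22 for CCN1 and 0.77 for WWTR1. With 1 library per condition these differences were not tested. CCN2 rests on 5 and 21 counts in MIA PaCa-2 cells.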

How the results depend on the processing

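Each condition had 1 library, so counting intervals hold no culture-to-culture error, and leaving out a line leaves no residual degree of freedom and only the within-line values. No paired analysis by replicate number was possible because the labels carry none; the pairing used is the cell line. No value past 2-fold reversed.

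With no filter on low counts, 2 of the 10 genes were past 2-fold higher in MIA PaCa-2 cells (CCN2 is added), with 3249 genes higher and 2567 lower in all, 2537 and 2310 in PANC-1 cells, and 5714 and 5164 between the lines. At 5 CPM or more, 995 were higher in MIA PaCa-2 cells, 633 higher in PANC-1 cells, and 1660 lower between the lines. From the deposited CPM with a pseudocount of 1, 680 were higher in PANC-1 cells. Over both lines DESeq2 called 615 genes higher and 756 lower, the fit with no filter 1056 and 1007 with 2 of the 10 genes lower (CCN2 at -0.94, adjusted p = 0.0471, is added), and at least 5 CPM in 2 libraries gave 219 and 228. Without the cell line in the edgeR fit 0 genes were called higher and 0 lower, 0 of the 10 among them, and 354 had an unadjusted p under 0.05. Between the lines without the treatment, 2498 were called higher and 1753 lower, with 3 of the 10 genes higher. With canonical transcript length, WWTR1 was 79.8% of the coactivator sum in the MIA PaCa-2 control and 61.3% in the PANC-1 control, TEAD1 13.4% and 43.8% of the TEAD sum, and TEAD4 53.6% and 29.1%; this choice was added after seeing the data. Scaling by library totals shifted the median of all genes by -0.132 between the lines, took TEAD1 there to 0.91, under 2-fold, and turned the PANC-1 values of YAP1 to 0.04 and LATS2 to 0.06.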

Other observations

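The genes nearest in pattern were found among 10068 genes averaging 10 CPM or more, by the Euclidean distance between log2 levels over the 4 libraries, each centred on its own mean. For YAP1 they were KCTD1 (distance 0.06), TNNT1 (0.06) and CD151 (0.09). For CCN1 they were DCLK2 (0.35), NT5DC3 (0.41) and KCNK6 (0.42). DCLK2, for example, had 14.1 CPM without and 22 CPM with CBC in MIA PaCa-2, beside 53.5 and 26.9 CPM in PANC-1. For CCN2 they were RHBDL2 (0.71), SOX21 (0.77) and GLUL (0.89), each with at most 5 counts in either MIA PaCa-2 library. With 4 libraries such closeness is a description only.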
